A study of Mus musculus with 16 samples.

Results

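ATP synthase, or complex V, was examined in brown adipose tissue (BAT) through 9 genes, *Atp5g1*, *Atp5g2*, *Atp5g3*, *Atp5a1*, *Atp5b*, *Atp5c1*, *Atp5d*, *Atp5h* and *Atp5o*, of the 51060 genes to which transcripts were matched. All 9 passed the filter on low counts, as did 15632 genes in all. They were chosen by name from earlier results on these same mice, in which the fold change between OPA1 BKO and WT mice was the value that set *Atp5g1* apart from the other subunits, so that contrast is described for them without a test. RNA came from 16 C57Bl/6J mice aged 7 weeks that were fed chow and kept at room temperature, 4 in each group of genotype and sex. All mice carried floxed *Opa1* alleles, OPA1 BKO mice (KO in the libraries' labels) carried Cre under the *Ucp1* promoter in addition, and WT littermates lacked Cre. The deletion is therefore directed to cells that express *Ucp1*, and other cells of the depot keep *Opa1*. Mice are named by the number of their library, S01 to S16.

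ATP synthase uses the proton gradient across the inner mitochondrial membrane to make ATP. Protons turn a ring of c-subunits in the membrane, the ring turns a central stalk inside the catalytic head, and a peripheral stalk holds the head still. *Atp5g1*, *Atp5g2* and *Atp5g3* are nuclear paralogs that encode the same mature c-subunit behind presequences that differ, and the presequence is cut off after import. Brown fat is known for a low content of ATP synthase relative to its respiratory chain, which has been linked to a low level of *Atp5g1*, and for UCP1, which lets protons return to the matrix without making ATP.

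The coding sequences of the mature c-subunit are shown because they decide which reads can tell the paralogs apart. They were read from the GRCm38 genome through GENCODE M21 and run from the first codon of the mature protein to the stop codon, 228 bases for 75 codons and the stop. Capitals mark the 58 positions at which the 3 sequences are not all alike.
Atp5g1-202: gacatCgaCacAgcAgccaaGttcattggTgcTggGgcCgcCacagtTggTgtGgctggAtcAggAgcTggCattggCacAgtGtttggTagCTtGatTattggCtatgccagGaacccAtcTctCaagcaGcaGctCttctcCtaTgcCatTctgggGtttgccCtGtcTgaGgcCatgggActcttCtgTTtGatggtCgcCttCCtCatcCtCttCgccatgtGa
Atp5g2-202: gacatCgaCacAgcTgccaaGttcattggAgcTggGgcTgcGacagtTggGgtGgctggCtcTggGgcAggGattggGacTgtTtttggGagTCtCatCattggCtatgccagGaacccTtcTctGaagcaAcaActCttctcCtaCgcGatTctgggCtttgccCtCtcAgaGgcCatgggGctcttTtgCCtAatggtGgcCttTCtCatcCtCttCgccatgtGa
Atp5g3-201: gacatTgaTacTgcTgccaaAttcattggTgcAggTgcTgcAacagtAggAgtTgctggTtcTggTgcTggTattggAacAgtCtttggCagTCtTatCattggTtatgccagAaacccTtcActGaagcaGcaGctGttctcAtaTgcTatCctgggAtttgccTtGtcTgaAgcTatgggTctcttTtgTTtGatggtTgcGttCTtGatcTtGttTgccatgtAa

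The 75 residues encoded were identical in all 3. *Atp5g1* and *Atp5g2* differed at 34 bases, 32 of them at the last position of a codon, *Atp5g1* and *Atp5g3* at 46, and *Atp5g2* and *Atp5g3* at 49. The longest run shared by any pair within this stretch was 21 bases, which is under the 31-base words by which kallisto, the tool that quantified these libraries, assigns reads. Reads of the c-subunit region can thus be assigned to a paralog by their synonymous bases. The 3 sequences lie on the minus strand, with the stretch in *Atp5g1* at chr11:96073104-96073635, in *Atp5g2* at chr15:102663014-102665166 and in *Atp5g3* at chr2:73908593-73909296, each span including introns.

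Reads of *Atp5g2* are nevertheless ambiguous, because of a copy elsewhere. Gm10175 is annotated as a transcribed processed pseudogene, a copy made from a spliced RNA, at chr7:23946646-23947290 on the minus strand. Its longer transcript, of 645 bases, is identical, base for base, to bases 83 to 727 of the 731-base transcript Atp5g2-202 and holds the whole coding sequence, at bases 141 to 581. Atp5g2-202 keeps 86 words of its own, at its ends. Of all 31-base words of *Atp5g2*, 40.2% occur in other genes (37.5% in Gm10175 and 25.0% in Gm10231, listed at 0 TPM in every mouse), against 14.1% for *Atp5g1* (7.2% in Gm10039, at a mean of 0.25 TPM in WT, transcripts scaled by length to a fixed total in each mouse) and 0% for *Atp5g3*. In the transcripts that hold most of each gene's TPM the shares are larger, 67.3% of the words of Atp5g1-202, which keeps 185 words of its own, and 87.7% of those of Atp5g2-202. Which of the genes the reads given to *Atp5g2* and Gm10175 came from cannot be told apart here.

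The libraries held 13607283 to 23114534 estimated counts each. A count of 0 allows up to 3 counts of such a total, a limit that covers counting error only, and the lowest member value was 132 counts (*Atp5g1* in WT male S03). *Opa1*, the targeted gene, was at 184 ± 18.2 CPM (counts scaled by library size and by TMM, the trimmed mean of M-values; SD, n = 8) in WT mice against 26.1 ± 7.31 in OPA1 BKO mice, with no overlap between the groups, as for 4.89% of the genes tested in this direction (log2 fold change -2.82 ± 0.15 (SE), edgeR adjusted p = 7.4e-10). The mitochondrial genome took 26.5% ± 2.41 of the counts in WT and 6.71% ± 1.54 in OPA1 BKO mice (SD, n = 8). On the TPM scale, and on counts scaled by library size alone, the median gene was higher in OPA1 BKO mice, by 0.81 and 0.57 on the log2 scale, against 0.01 with TMM, and the part of the mitochondrial share in these shifts was not tested. Levels of different genes are compared in TPM within a mouse, which takes gene length into account, and fold changes are given with TMM and relative to the median gene. Skeletal muscle RNA varied between mice of every group: the summed level of 12 muscle markers ran from 79.2 to 8807 CPM in WT mice and from 49.2 to 21337 CPM among OPA1 BKO mice, and none of the 12 was at or under 3 counts in all mice. The summed level of 10 macrophage markers was 117 to 176 CPM in WT mice, and 156 to 635 CPM among OPA1 BKO mice. Of these markers 9 of 10 were higher (edgeR, adjusted p under 0.05), where 20.8% of all genes tested were higher. Without the 8 mice rich in muscle markers 4 of the 10 were higher, as were 1816 of 15788 genes tested. The summed level of 10 brown adipocyte markers was 15415 to 23279 CPM in WT mice, and 9145 to 14845 CPM among OPA1 BKO mice. Of these 10 markers 5 were lower, 3 were not called and 2 were higher (edgeR, adjusted p under 0.05). Of all genes tested 20.2% were lower and 20.8% higher. The higher markers were *Elovl3*, a fatty acid elongase gene, by 2.99 and *Pparg* by 0.47 on the log2 scale. Without the mice rich in muscle markers 3 of the 10 were lower and 2 higher, beside 1626 and 1816 of 15788 genes tested. With library size alone 2 were lower and 4 higher, beside 374 and 10863 of all genes. With TPM 1 was lower and 6 were higher, beside 119 and 13492. Relative to the median gene their median was -0.46 and -0.30 on these 2 scales. With TMM, 4 of 6 fibroblast markers were higher, and 3 of 7 endothelial and 3 of 8 lymphocyte markers were lower (edgeR, adjusted p under 0.05). The rest of these 3 lists were not called. Without the mice rich in muscle markers 0, 2 and 2 were so called. With TPM 6, 7 and 2 were higher and none was lower. The part of macrophage RNA, of these other cell types and of the brown adipocyte share in the members' values was not tested. In bulk tissue, fewer cells of a type and less RNA per cell cannot be told apart.

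In WT mice the catalytic β subunit gene *Atp5b* was by far the highest of the 9, at 4506 ± 744 TPM, and the c-subunit genes were the lowest (SD, n = 8 here and below). *Atp5h* followed at 1162 ± 132 TPM, *Atp5o* at 977 ± 122, *Atp5d* at 751 ± 74.4, *Atp5a1* at 733 ± 57.6 and *Atp5c1* at 585 ± 36.9 TPM. Among the c-subunit genes as deposited, *Atp5g3* was highest at 360 ± 43.7 TPM, with *Atp5g1* at 29.6 ± 18.6 and *Atp5g2* at 19.0 ± 2.66 TPM. Neighbours in this order had separate ranges only between *Atp5b* and *Atp5h*, between *Atp5c1* and *Atp5g3*, and between *Atp5g3* and *Atp5g1*. *Atp5d* was above *Atp5a1* in 4 of 8 WT mice, and *Atp5g1* above *Atp5g2* in 5 of 8, so neither pair had a stable order in WT. In OPA1 BKO mice *Atp5g1* was above *Atp5g2* in 8 of 8 mice, at 122 ± 88.1 against 33.9 ± 4.70 TPM, and *Atp5b* was again highest, at 6652 ± 623 TPM. The place of *Atp5g2* in these orders rests on the deposited split of its reads with Gm10175. Both genes together were at 423 ± 25.0 TPM in WT, above *Atp5g3* in 8 of 8 mice, and at 635 ± 33.5 TPM in OPA1 BKO mice.

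**Figure D1:**
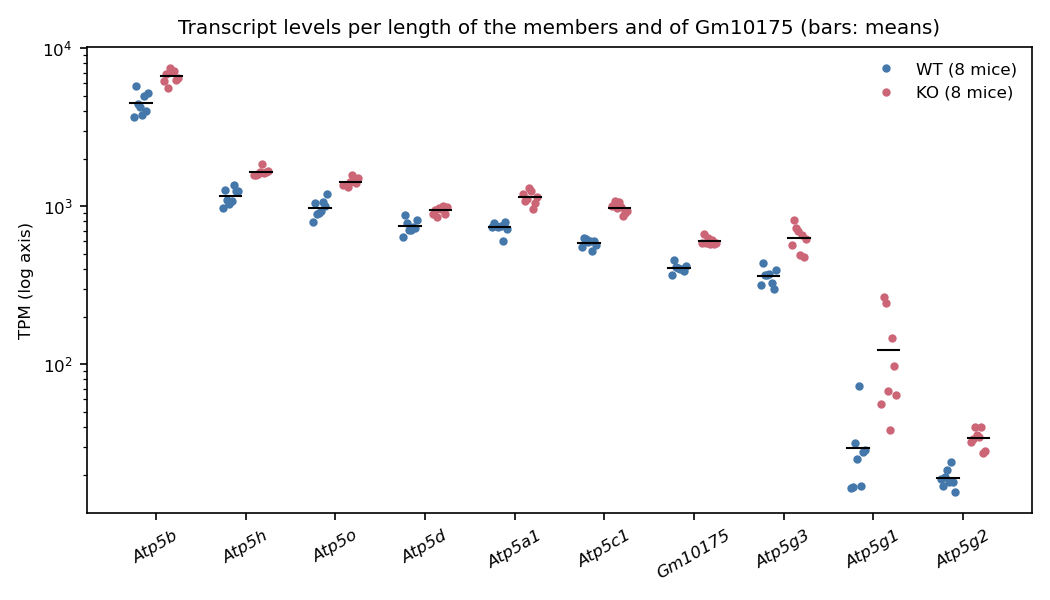
Level of each of the 9 genes and of Gm10175 in each mouse in TPM (log axis), with WT mice in blue, OPA1 BKO mice (KO) in red and bars for the means of 8 mice. *Atp5b* lies at the top (mean 4506 TPM in WT) and *Atp5g1* and *Atp5g2* at the bottom (29.6 and 19.0 TPM), with *Atp5g1* spread most widely and Gm10175 (404 TPM) beside *Atp5g3*. TPM values are higher in OPA1 BKO mice for the median gene too, by 0.81 on the log2 scale.

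Each c-subunit gene was read mainly from 1 transcript, the same in both genotypes. Atp5g1-202, of 596 bases, held 98.0% of the TPM of *Atp5g1* in WT and 97.8% in OPA1 BKO mice. Atp5g2-202 held 93.5% of *Atp5g2* in both genotypes, and Atp5g2-204 held 5.6% and 5.7%. Atp5g3-201 held 78.9% ± 2.0 of *Atp5g3* in WT and 77.5% ± 2.6 in OPA1 BKO mice, and Atp5g3-202 held 15.1% ± 1.7 and 18.1% ± 2.6 (SD, n = 8). The higher *Atp5g1* level in OPA1 BKO mice was carried by the same transcript as in WT, at a mean of 29.1 TPM in WT mice against 120 TPM in OPA1 BKO mice.

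*Atp5g1* was the member whose mean was higher in OPA1 BKO mice on every scale tried, TMM, library size alone and TPM, and its CPM was the most variable of the 9 relative to its mean within each genotype, with an SD of 51.7% of the mean in WT and 67.0% in OPA1 BKO mice. In WT females it was at 10.8 CPM in S01, 19.0 in S05, 38.2 in S09 and 15.2 in S13, and in WT males at 10.04 CPM in S03, 16.2 in S07, 11.99 in S11 and 18.3 in S15. In OPA1 BKO females it was at 17.02 CPM in S02, 68.7 in S06, 12.8 in S10 and 31.2 in S14, and in OPA1 BKO males at 75.4 CPM in S04, 20.01 in S08, 48.5 in S12 and 19.6 in S16. The genotypes overlapped: only S04, S06 and S12 lay above the highest WT mouse, S09, and no OPA1 BKO mouse lay below the lowest WT mouse. Means were 17.5 ± 9.03 CPM in WT mice against 36.7 ± 24.6 CPM in OPA1 BKO mice (SD, n = 8). The log2 fold change was 1.08 ± 0.39 (SE), with 0.64 ± 0.54 in females and 1.53 ± 0.55 in males, and relative to the median gene it was 1.08 on the library-size scale and 1.08 on the TPM scale. With any 1 mouse left out it was 0.82 to 1.33.

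**Figure D2:**
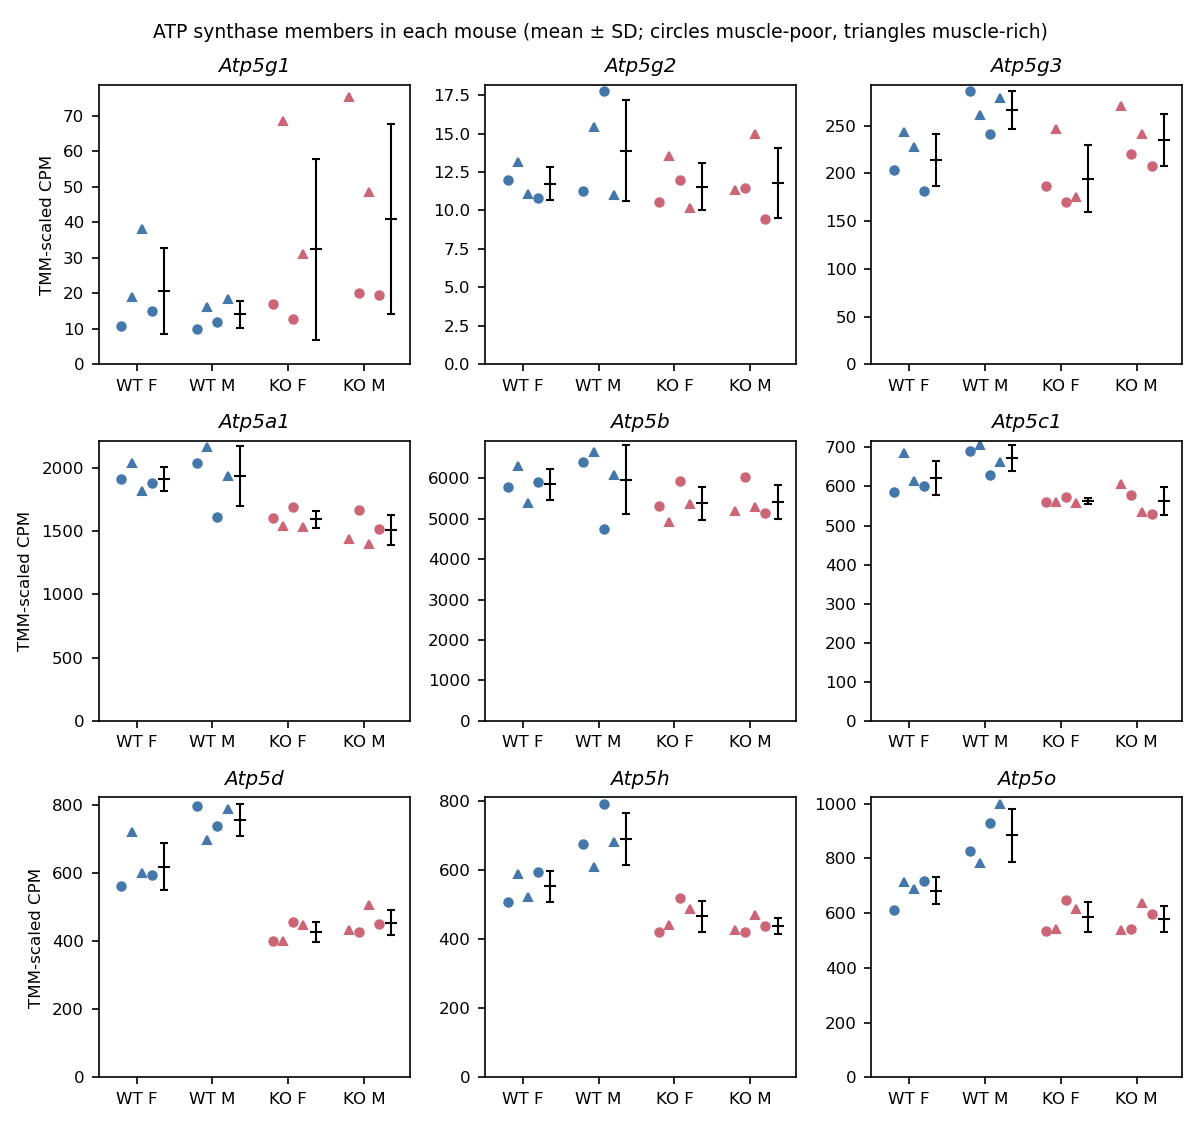
TMM-scaled CPM of each member in each mouse (linear axes from 0, 1 panel a gene) by genotype and sex (F, M), with means ± SD of 4 mice; circles are mice with under 2000 CPM of muscle markers and triangles the others. *Atp5g1* shows 3 OPA1 BKO (KO) mice, all triangles, above all WT mice and the others among them, and *Atp5d* is the member whose genotypes do not overlap. The lower OPA1 BKO means of the other members on this scale are higher means with TPM and, except for *Atp5d*, with library size alone.

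Skeletal muscle markers moved with *Atp5g1* within each genotype. For each of the 9 genes, CPM was set against the summed CPM of the 12 muscle markers within WT and within OPA1 BKO mice, which made 18 relations. For *Atp5g1* Pearson's r was 0.957 in WT (exact permutation p = 2.5e-04, two-sided, adjusted p = 0.00223, n = 8) and 0.968 in OPA1 BKO mice (exact permutation p = 2.5e-04, adjusted p = 0.00223, n = 8). Spearman's rho was 0.905 in each genotype (exact permutation p = 0.00456, adjusted p = 0.0411). Without the 2 mice farthest from the median of the marker sum, r was 0.911 in WT and 0.896 in OPA1 BKO mice (n = 6). The fitted lines had close slopes, 2.90 and 2.92 CPM of *Atp5g1* per 1000 CPM of marker sum. Their intercepts were 9.61 CPM in WT mice and 17.7 CPM in OPA1 BKO mice, and the difference was not tested. S10, the OPA1 BKO mouse with the lowest marker sum (49.2 CPM), was at 12.8 CPM of *Atp5g1*. None of the other 16 relations had an adjusted p under 0.05 by the exact permutation test of Pearson's r; the smallest was that of *Atp5g3* in OPA1 BKO mice (r = 0.775, exact permutation p = 0.0179, adjusted p = 0.108), for which r was 0.245 without the 2 farthest mice.

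The 3 OPA1 BKO mice with the most *Atp5g1* were among the 8 mice with a marker sum of 2000 CPM or more, a limit set after these values were seen. In the 4 WT mice below it, *Atp5g1* was at 10.8 CPM in S01, 10.04 in S03, 11.99 in S11 and 15.2 in S13. In the 4 OPA1 BKO mice below it, *Atp5g1* was at 17.02 CPM in S02, 20.01 in S08, 12.8 in S10 and 19.6 in S16, so the groups overlapped through S10 and S13. The marker sums of these mice were alike on average, 556 ± 567 CPM in WT mice against 562 ± 508 CPM in OPA1 BKO mice (SD, n = 4), and the *Atp5g1* log2 fold change among them was 0.52 ± 0.18 (SE). With the log2 marker sum as a further term in all 16 mice it was 0.77 ± 0.18 (SE). The 12 muscle markers themselves had a median log2 fold change of 1.34 over all mice and 0.11 over the 8 mice below the limit, and none was called different in either fit (edgeR, adjusted p under 0.05).

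**Figure D3:**
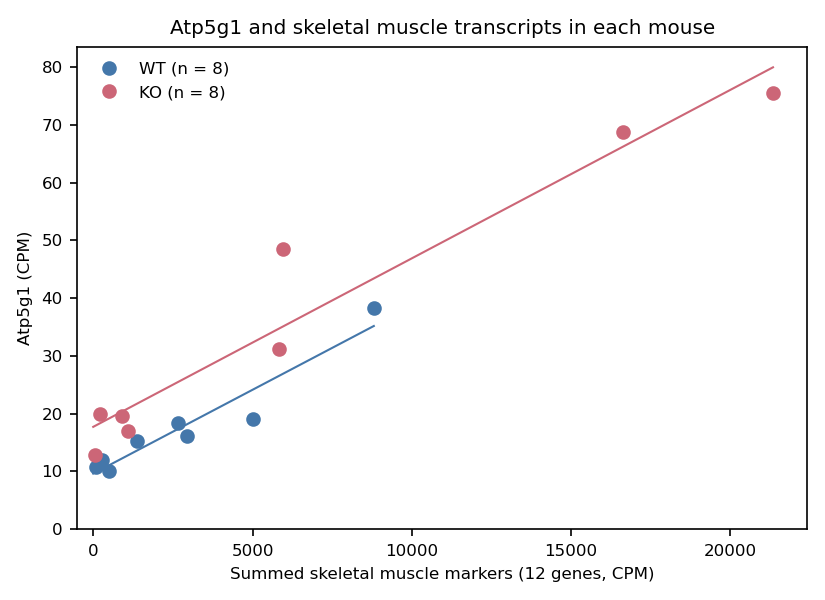
*Atp5g1* (TMM-scaled CPM) against the summed CPM of 12 skeletal muscle markers in each mouse, both on linear axes, with 1 fitted line for WT (blue) and 1 for OPA1 BKO mice (KO, red). *Atp5g1* is higher in mice with more muscle marker RNA in both genotypes (r = 0.957 and 0.968), and the lines run at close slopes with intercepts of 9.61 and 17.7 CPM.

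The genes whose pattern was most like that of *Atp5g1* were sought among 8691 genes whose mean over all mice was 10 CPM or more, by Pearson's correlation of log2 CPM over the 16 mice. They were *Map4*, which encodes a microtubule-associated protein (r = 0.98), *Lrrfip1* (0.97), *Hspb6*, a small heat shock protein gene (0.96), *Des*, which encodes the muscle intermediate filament desmin (0.95), and *Rilpl1* (0.94). With the mean of each of the 4 groups removed they were *Map4* (r = 0.98), *Ybx3* (0.98), *Hspb6* (0.97), *Fhl3* (0.97) and *Bin1* (0.97). The muscle markers had a median rank of 174 over the 16 mice and of 150 with the group means removed. The other members ranked far lower over the 16 mice, *Atp5g3* at 2611, *Atp5g2* at 4097 and *Atp5a1* at 8282. With the group means removed *Atp5g3* ranked at 257 (r = 0.74), while *Atp5g2* ranked at 1495, *Atp5c1* at 1642 and *Atp5a1* at 6984. These points share their libraries and depth.

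*Atp5g2* and *Atp5g3*, the paralogs of *Atp5g1*, had log2 fold changes of -0.13 ± 0.12 and -0.16 ± 0.09 (SE) with TMM, and these turned to 0.43 and 0.40 with library size alone and to 0.82 and 0.80 with TPM. Relative to the median gene they were -0.14 and -0.17 with library size alone and 0.01 and -0.01 with TPM. *Atp5g2* was at 11.95, 13.1, 11.1 and 10.8 CPM in WT females, 11.3, 15.4, 17.8 and 11.01 in WT males, 10.5, 13.5, 11.99 and 10.2 in OPA1 BKO females and 11.3, 11.5, 14.9 and 9.42 CPM in OPA1 BKO males, in order of library number, so 5 of 8 OPA1 BKO mice lay within the WT range and 3, S02, S14 and S16, lay below it. *Atp5g3* was at 181 to 286 CPM in WT, with a median of 242, and at 170 to 270 CPM in OPA1 BKO mice, with a median of 214. Only 2 OPA1 BKO mice lay below the lowest WT mouse.

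For *Atp5g2*, the value depended on the reads it shares with Gm10175. Gm10175 was listed at 404 ± 25.6 TPM in WT mice against 601 ± 31.9 TPM in OPA1 BKO mice, far above the gene it is a copy of. In its CPM all 8 OPA1 BKO mice lay below all 8 WT mice, as for 4.89% of all genes tested. *Atp5g2* held 4.50% ± 0.70 of the TPM of both genes together in WT and 5.33% ± 0.69 in OPA1 BKO mice. The joint level was 246 ± 26.2 CPM in WT mice against 189 ± 11.7 CPM in OPA1 BKO mice (SD, n = 8). In TPM, a scale on which the median gene was higher too, it rose from 423 ± 25.0 to 635 ± 33.5. With the reads of genes that share at least 5% of a paralog's words added to that paralog, the log2 fold change of *Atp5g2* was -0.37 ± 0.06 (SE) in place of -0.13, and that of *Atp5g1* was 1.08.

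The composition of the c-subunit RNA was described by each paralog's share of their summed TPM, which does not depend on scaling between mice. *Atp5g3* held 88.1% ± 3.65 in WT and 81.3% ± 6.49 in OPA1 BKO mice, and *Atp5g2* held 4.74% ± 1.03 and 4.46% ± 0.90 (SD, n = 8). *Atp5g1* held 7.12% ± 3.85 in WT, from 3.57% in S03 to 15.8% in S09, and 14.3% ± 7.07 in OPA1 BKO mice, from 6.80% in S10 to 24.0% in S06. The ranges overlapped, and the difference of the means was 7.17 percentage points. In the mice with under 2000 CPM of muscle markers, *Atp5g1* held 3.57% to 8.05% in WT mice, and 6.80% to 8.97% among OPA1 BKO mice, with means of 5.21% ± 1.96 and 8.22% ± 0.97 (SD, n = 4).

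Counting Gm10175 and the other sharing genes with their paralog changed which paralog was first in all WT mice, and in 3 of 8 OPA1 BKO mice. *Atp5g2* then held 52.2% ± 2.32 of the c-subunit TPM in WT and 46.4% ± 5.24 in OPA1 BKO mice, *Atp5g3* held 44.2% ± 1.96 and 45.3% ± 2.59, and *Atp5g1* held 3.64% in WT and 8.28% in OPA1 BKO mice on average. *Atp5g2* was then above *Atp5g3* in 8 of 8 WT mice, while *Atp5g3* was still first in 5 of 8 OPA1 BKO mice, S04, S06, S08, S12 and S16. The pool of c-subunit TPM was 46.6% ± 5.37 of the median TPM of the other 6 members in WT and 62.2% ± 17.7 in OPA1 BKO mice, and with the sharing genes it was 92.8% ± 7.83 and 109% ± 21.4 (SD, n = 8). On that count the pooled c-subunit RNA was close to the other members' level rather than well below it, and which count is nearer to the RNA present was not tested.

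**Figure D4:**
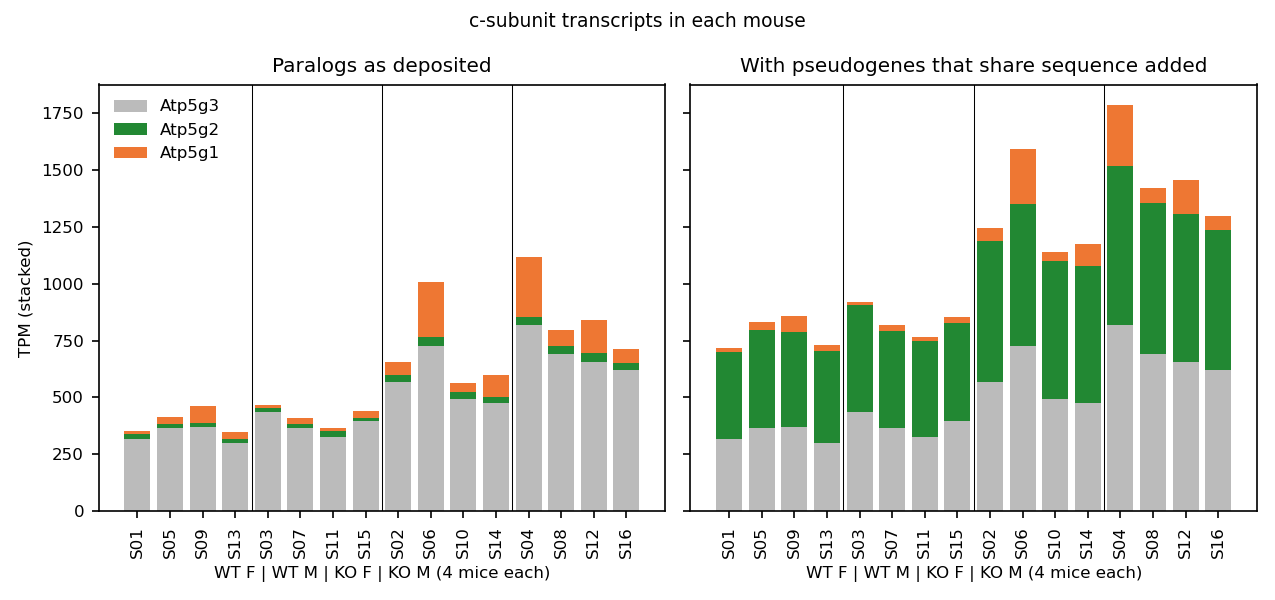
TPM of the c-subunit paralogs in each mouse, stacked, as deposited (left) and with the pseudogenes that share their sequence added to each paralog (right), in groups of 4 mice. As deposited, *Atp5g3* makes up most of each bar and *Atp5g1* takes 3.57% to 15.8% in WT and 6.80% to 24.0% among OPA1 BKO mice (KO); with the pseudogenes, *Atp5g2* takes 52.2% in WT on average. All bars are higher among OPA1 BKO mice on this scale, as is the median gene.

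The means of the other 6 members were lower in OPA1 BKO mice on the TMM scale and, except for *Atp5d* with library size alone, higher on the other scales. In the catalytic head, *Atp5a1*, the α subunit gene (chr18:77773729-77782869, plus strand), was at 1609 to 2166 CPM in WT, median 1925, and at 1399 to 1689 CPM in OPA1 BKO mice, median 1540. Its log2 fold change was -0.31 ± 0.07 (SE), and 6 OPA1 BKO mice lay below the lowest WT mouse. *Atp5b*, the β subunit gene (chr10:128083273-128090391, plus strand), was at 4740 to 6651 CPM in WT, median 6009, and at 4922 to 6022 CPM in OPA1 BKO mice, median 5305. Every OPA1 BKO mouse lay within the WT range of *Atp5b*, and its log2 fold change was -0.13 ± 0.08 (SE).

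In the central stalk, *Atp5c1*, the γ subunit gene (chr2:10056016-10080510, minus strand), was at 587 to 707 CPM in WT, median 646, and at 531 to 606 CPM in OPA1 BKO mice, median 560. In 7 of 8 OPA1 BKO mice it lay below the lowest WT mouse, and the log2 fold change was -0.20 ± 0.06 (SE). *Atp5d*, the δ subunit gene (chr10:80138632-80145818, plus strand), was at 564, 720, 599 and 595 CPM in WT females, 796, 698, 739 and 789 in WT males, 402, 400, 455 and 447 in OPA1 BKO females and 432, 428, 507 and 452 CPM in OPA1 BKO males, in order of library number. It was the member whose genotypes did not overlap in CPM, where every OPA1 BKO mouse lay below every WT mouse in 4.89% of all genes tested, with a log2 fold change of -0.64 ± 0.07 (SE).

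In the peripheral stalk, *Atp5h*, the subunit d gene (chr11:115415689-115419962, minus strand), was at 507 to 792 CPM in WT, median 601, and at 420 to 519 CPM in OPA1 BKO mice, median 439. *Atp5o*, which encodes the oligomycin sensitivity conferring protein (chr16:91925214-91931687, minus strand), was at 611 to 999 CPM in WT, median 750, and at 535 to 650 CPM in OPA1 BKO mice, median 571. OPA1 BKO mice lay below the lowest WT mouse in 7 of 8 cases for *Atp5h* and in 5 of 8 for *Atp5o*. Their log2 fold changes were -0.45 ± 0.09 and -0.41 ± 0.09 (SE). *Atp5o* shares 49.6% of its words with other annotated genes, antisense ones included, which were listed at under 2 TPM on average, and *Atp5h* shares 24.2% with the pseudogene Gm10250, at 2.62 TPM in WT.

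Among the 9 members the median log2 fold change was -0.20, and 8 of 9 values were below 0, against a median of 0.01 over the 15632 genes tested, of which 41% were called different between the genotypes. With library size alone 1 of these 8 was below 0 (*Atp5d*, at -0.08), and with TPM none was. Relative to the median gene, on the TPM scale, *Atp5d* was at -0.49, *Atp5h* at -0.31, *Atp5o* at -0.27, *Atp5b* at -0.24, *Atp5a1* at -0.19 and *Atp5c1* at -0.08. Without the 8 mice rich in muscle markers the TMM values of the 8 members were all below 0, from -0.62 for *Atp5d* to -0.03 for *Atp5b*.

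The remaining nuclear genes of complex V, which did not choose the members, were tested. This list too was chosen with earlier results on these mice known, so its p-values do not come from a blind choice. All 8 of 8 were lower in OPA1 BKO mice (edgeR, adjusted p from 1.2e-06 to 0.0035), where 20.2% of all genes tested were lower, and their median log2 fold change was -0.81, against 0.01 for all genes. *Atp5k* and *Atp5l* encode subunits e and g, which lie where complexes pair, and changed by -0.95 ± 0.11 and -0.72 ± 0.07 (SE). *Atp5e*, which encodes the ε subunit of the central stalk, was at 430 ± 85.8 CPM in WT mice against 234 ± 17.6 CPM in OPA1 BKO mice, so its log2 fold change was -0.86. *Atp5j2* (subunit f), *Usmg5* and *Atp5mpl*, small membrane subunits, changed by -0.81, -0.80 and -0.84. The peripheral stalk genes *Atp5f1* (subunit b) and *Atp5j* (coupling factor F6) changed least, by -0.44 and -0.28.

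The genotypes did not overlap for 7 of these 8 genes, *Atp5j* being the exception, and for 1 of the 9 members, beside 4.89% of all genes tested. All 8 were also lower without the mice rich in muscle markers, as were 1626 of 15788 genes tested. With library size alone 6 were lower and 1 higher, and with TPM none was lower and 4 were higher, while their median relative to the median gene was -0.82 and -0.64. The 2 subunits of the mitochondrial genome, *mt-Atp6*, the a-subunit along which protons reach the ring, and *mt-Atp8*, were lower on every scale tried here, with log2 fold changes of -3.19 and -2.84 with TMM. *mt-Atp6* was at 15407 to 36069 CPM in WT and at 1471 to 4217 CPM in OPA1 BKO mice. The same 2 genes changed by -2.62 and -2.27 with library size alone, and by -2.19 and -1.78 with TPM.

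**Figure D5:**
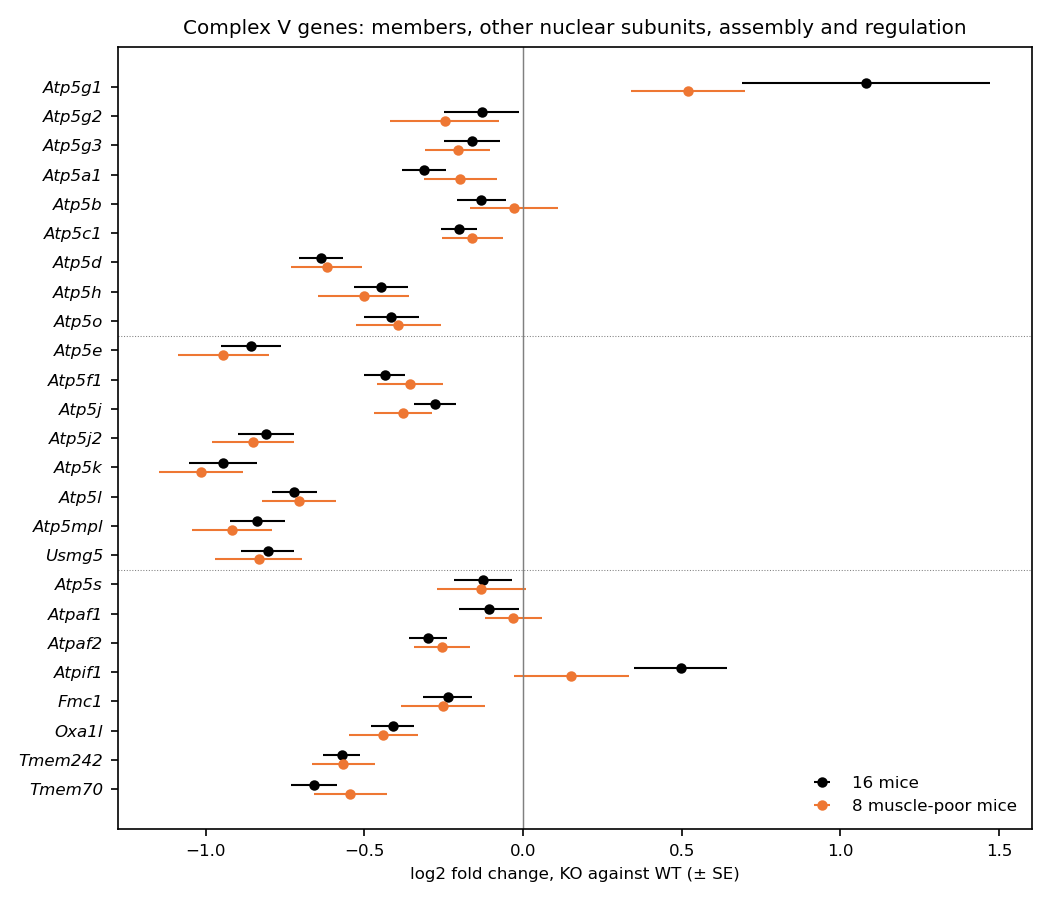
Log2 fold change of OPA1 BKO (KO) against WT mice (TMM scale, bars ± SE) of the 9 members, the 8 other nuclear subunits and the 8 genes for assembly and regulation, separated by dotted lines, in all 16 mice (black) and in the 8 mice with under 2000 CPM of muscle markers (orange). *Atp5g1* lies at 1.08 in all mice and 0.52 in the 8, the other members lie between -0.64 and -0.13 in all mice, and the 8 other nuclear subunits between -0.95 and -0.28. With TPM all these nuclear subunits lie above 0, where the median gene lies at 0.81.

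Of 8 genes for assembly and regulation of the complex, 1 was higher and 5 were lower (edgeR, adjusted p under 0.05). Of all genes tested 20.8% were higher and 20.2% lower. The higher gene was *Atpif1*, whose protein inhibits hydrolysis of ATP by the enzyme, at 10.5 ± 3.20 CPM in WT mice against 14.8 ± 4.33 CPM in OPA1 BKO mice (log2 fold change 0.50 ± 0.15 (SE), adjusted p = 0.013). The genotypes overlapped, and without the mice rich in muscle markers *Atpif1* was no longer called (0.15 ± 0.18 (SE), edgeR adjusted p = 0.58). *Tmem70* and *Tmem242*, assembly factors of the c-ring, fell by 0.66 and 0.57 on the log2 scale, *Oxa1l*, the inner membrane insertase, by 0.41, *Atpaf2*, a chaperone of the α subunit, by 0.30, and *Fmc1* by 0.24. *Atpaf1*, a chaperone of the β subunit, and *Atp5s* had values of -0.11 and -0.12 and were not called. Without the mice rich in muscle markers, *Tmem70*, *Tmem242* and *Oxa1l* were still lower, as were 1626 of 15788 genes tested, and *Atpaf2* and *Fmc1* were no longer called. Relative to the median gene the list's median was -0.28 with library size alone and -0.06 with TPM, scales on which 5 and 8 of the 8 genes were higher and none was lower.

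The mature c-subunit is released by the presequence peptidase of the matrix, encoded by *Pmpca* and *Pmpcb*. *Pmpca* fell by 0.26 on the log2 scale with TMM (edgeR adjusted p = 0.0013), and *Pmpcb* was at -0.11 and was not called. Without the mice rich in muscle markers the 2 values stayed below 0, from -0.20 to -0.05. Neither gene was called in that fit of fewer mice (*Pmpca*, edgeR adjusted p = 0.15). Of the carriers that bring phosphate and ADP to the enzyme, *Slc25a3* was at 0.22 (edgeR adjusted p = 0.051), *Slc25a4* at -0.01 and *Slc25a5* at -0.04, and none was called. Without the mice rich in muscle markers *Slc25a4* was lower (-0.38, edgeR adjusted p = 0.021). With library size alone and with TPM the 2 peptidase and 3 carrier genes were all higher.

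Of 8 regulators of nuclear genes for oxidative phosphorylation, 3 were higher and none was lower (edgeR, adjusted p under 0.05), where 20.8% of all genes tested were higher. *Nrf1*, a transcription factor of respiratory chain genes, was at 11.6 to 15.8 CPM in WT and at 23.0 to 34.1 CPM in OPA1 BKO mice, so its log2 fold change was 1.10 ± 0.09 (SE, edgeR adjusted p = 8.5e-08). *Gabpa* changed by 0.74 and the coactivator gene *Ppargc1b* by 0.47, and *Ppargc1a* was at 0.60 (edgeR adjusted p = 0.18) and was not called. Without the mice rich in muscle markers *Ppargc1b* was no longer called (0.55, edgeR adjusted p = 0.11), and with library size alone or TPM all 8 were higher. Of 62 nuclear genes of complexes I to IV, 59 were lower and none was higher, where 20.2% of all genes tested were lower. Their median log2 fold change was -0.59 beside -0.20 for the members. The count called lower depended on the scaling. With library size alone 13 were lower and 8 higher, and with TPM 1 was lower and 48 were higher, with medians of -0.60 and -0.44 relative to the median gene. *Cox6a2* (1.99, edgeR adjusted p = 0.053) was the only one with a TMM value above 0. Without the mice rich in muscle markers *Cox6a2* was called higher (3.16, edgeR adjusted p = 0.016) and 52 of the 62 lower, as were 1626 of 15788 genes tested.

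Sex was compared for the members, since it had no part in their choice. In WT, 8 of 9 members had higher fitted levels in males than in females and none was called by edgeR (smallest adjusted p = 0.11), where 0.23% of all genes were called. *Atp5o* was at a log2 difference, males minus females, of 0.37 ± 0.10 (SE, edgeR adjusted p = 0.11), *Atp5h* of 0.32 (adjusted p = 0.13), *Atp5d* of 0.29 (adjusted p = 0.16) and *Atp5g3* of 0.32 (adjusted p = 0.24). These 4 of 9 had an unadjusted p under 0.05, as did 16.5% of all genes. DESeq2 called 3 of them, *Atp5o* (adjusted p = 0.010), *Atp5h* (adjusted p = 0.027) and *Atp5d* (adjusted p = 0.038), among 560 genes called. Without WT male S07, edgeR called *Atp5h* and *Atp5o*, among 608 of 15956 genes called, in place of 36. Without the mice rich in muscle markers, 6 of 9 members had higher fitted levels in WT males. None was called there (edgeR, smallest adjusted p = 0.15), among 25 of 15788 genes called. In WT the summed level of brown adipocyte markers was 16875 ± 2179 CPM in females and 20493 ± 2647 CPM in males, and that of muscle markers 3818 ± 3929 and 1598 ± 1406 CPM (SD, n = 4). Their part in the differences between the sexes was not tested.

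*Atp5g1* was the member with the lower fitted level in WT males, at -0.55 ± 0.55 (SE). Its share of the c-subunit TPM was 9.04% ± 4.78 in WT females and 5.20% ± 1.37 in WT males (SD, n = 4). The test did not tell the difference of -3.84 percentage points from 0 (exact permutation p = 0.11, two-sided). Without WT female S01 the difference was -5.31 points, the largest with any mouse left out (exact permutation p = 0.029, unadjusted). That p is the smallest that so few mice allow. Without S09, the WT mouse with the highest marker sum, the difference was -1.58 points. In OPA1 BKO mice the share was 13.9% ± 7.88 in females and 14.7% ± 7.35 in males, a difference of 0.76 points (exact permutation p = 0.77).

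In OPA1 BKO mice none of the 9 members was called between the sexes by edgeR (smallest adjusted p = 0.25) or DESeq2, where edgeR called 3.85% of all genes, and 1, *Atp5g3*, had an unadjusted p under 0.05 (log2 difference 0.27). The difference between the sexes in the effect of genotype was not called for any of the 9 (edgeR, smallest adjusted p = 0.22, and 0 by DESeq2), where 0.115% of all genes were called. At an unadjusted p under 0.05 there were 2, *Atp5h* (a difference of -0.41 between males and females, edgeR adjusted p = 0.22) and *Atp5o* (-0.39, adjusted p = 0.26), against 13.1% of all genes. *Atp5h* changed by -0.25 in females and -0.65 in males, and *Atp5o* by -0.22 and -0.61. *Atp5g1*, at 0.64 in females and 1.53 in males, was not among them.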

How the data were processed

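RNA of BAT was selected for polyadenylated transcripts and sequenced from a stranded kit. For each mouse the authors deposited the kallisto 0.45.0 output, which lists for each transcript an estimated count, which can be fractional and carries no normalization, together with a TPM. The TPM values the authors deposited are divided by effective length and sum to the same total in each mouse. The build given by the submitters' processing notes is mm10. The genome alignment that the study also describes was not analysed here.

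Of 135308 transcripts, 133284 were matched by identifier to GENCODE M21. The others held 0.483% to 0.730% of the counts. Gene sums of the estimated counts were rounded to whole numbers, filtered by filterByExpr (minimum count 10, minimum total 15), scaled by TMM and fitted in edgeR 4.0.16 (R 4.3.3; quasi-likelihood test, prior count 0.125), with a term for sex, or with 1 mean for each of the 4 groups for the contrasts of sex. Benjamini-Hochberg adjustment ran over all 15632 genes tested, with a threshold of 0.05. Single values were compared by exact permutation tests in Python 3.11.15. Mice were treated as independent samples. Within groups every pair of libraries differed by more than counting noise.

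The members and gene lists were chosen with earlier results of these data known. The genes named were all members, *Opa1*, each gene of the complex V, peptidase and carrier lists, at most the 4 largest and 2 smallest changes of other lists, c-subunit transcripts with at least 5% of a gene's TPM, genes that share at least 5% of a paralog's 31-base words, and the 5 genes most correlated with *Atp5g1*. DESeq2 1.42.0, limma 3.58.1 on log2(TPM + 0.5), other scalings and filters, and left-out mice were alternatives. The leaving out of mice with at least 2000 CPM of muscle markers, the term for these markers and the adding of shared reads were chosen after seeing the data. The fitting steps were tested on simulated data.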

Additional observations from a re-analysis of the deposited data

How the results depend on the processing

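Scaling was the choice on which direction depended. With library size alone the log2 fold changes of *Atp5g2*, *Atp5g3*, *Atp5a1*, *Atp5b*, *Atp5c1*, *Atp5h* and *Atp5o* turned to 0.43, 0.40, 0.24, 0.43, 0.36, 0.10 and 0.14, and with limma on log2 TPM those of *Atp5g2*, *Atp5g3*, *Atp5a1*, *Atp5b*, *Atp5c1*, *Atp5d*, *Atp5h* and *Atp5o* turned to 0.82, 0.80, 0.63, 0.57, 0.73, 0.33, 0.51 and 0.54. Members other than *Atp5g1* below 0 numbered 8 with TMM, 1 with library size alone and 0 with TPM, and other nuclear complex V genes called lower numbered 8 with TMM and 0 with TPM. Over all genes 3255 were higher and 3157 lower with TMM, 10863 and 374 with library size alone, and 13492 and 119 with TPM. The median gene itself moved by these scalings, and relative to it 8 of 8 members stayed below 0 with library size alone and 7 of 8 with TPM (*Atp5g2* at 0.01). *Atp5g1* kept its direction under all 28 alternatives. Without the mice rich in muscle markers 3442 genes were called in place of 6412, in a fit of 8 mice.

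With DESeq2, 3 members were called between the sexes in WT in place of 0, and 0 to 2 with a mouse left out (2 without S07). The male-minus-female difference in the *Atp5g1* share was -5.31 to -1.58 points in WT and -2.32 to 4.12 points in OPA1 BKO mice with a mouse left out, negative there without S02, S04, S10 or S12. The OPA1 BKO minus WT difference in the share of Atp5g1-202 was -0.19 points in TPM and 1.72 in estimated counts. The cause was not tested. No paired analysis was possible because the labels give each library its own number. Muscle-rich mice were not left out of the comparison of shares between sexes, which would leave too few mice. *Atp5g2* and *Atp5g1* had the lowest estimated counts of the members, and the part of depth in their spread was not tested.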
